A study of Homo sapiens with 12 samples.

Results

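RTN1, SLAMF7, PRTFDC1 and ZNF518B were close to absent from the RNA of one of the T24 cell lines and clearly present in that of the other. RTN1 and SLAMF7 were present in the NS1 line, whereas PRTFDC1 and ZNF518B were present in the WT line. These 4 genes were chosen by their counts, out of 60603 genes in the deposited table: near the detection floor in 1 line only, outside the imprinted genes, and listed as independent of the inducer, which SLAMF7 did not follow in 2 of 3 replicates. Their difference between the lines is therefore given as a description, with an error and without a test.

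The data are poly(A) RNA-seq counts from 12 libraries of T24, an established human bladder carcinoma line, with 3 libraries in each of 4 groups. The groups were WT cells with no treatment, WT cells with 5-Ad-IAA, NS1 cells with no treatment and NS1 cells with 5-Ad-IAA, and 5-Ad-IAA is called the inducer here. The series concerns AlissAID, in which an auxin-type inducer recruits a ubiquitin ligase to an untagged protein through a binding protein. The genotype NS1 is not spelled out in the labels, nor is the construct or its promoter, and whether the NS1 line is 1 clone or a pool is not stated. A difference between the lines can therefore not be told apart from a difference between clones or from an effect of the construct. Nothing in the labels says that replicates came from separate cultures, so that p-values measure only the spread between these libraries.

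The 4 genes have unrelated roles. RTN1 encodes reticulon 1, a membrane protein that bends the tubules of the endoplasmic reticulum (ER) and is best known from neurons and neuroendocrine cells. SLAMF7 encodes a cell surface receptor of the SLAM family, found on natural killer cells and plasma cells. PRTFDC1 is a relative of HPRT1, the enzyme that salvages hypoxanthine and guanine for purine nucleotides. ZNF518B is a zinc finger protein that binds the histone H3 lysine 9 (H3K9) methyltransferases EHMT1 and EHMT2. Most promoters rich in CG dinucleotides are free of DNA methylation, and some are held silent by methylation or by repressive histone marks, none of which was measured here.

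The sequences before the start sites are shown because the promoters of these genes differ in CG content. RefSeq promoters on GRCh38.p14 were matched for 3 of the 4 genes, RTN1 with 3 starts. SLAMF7 was not among them. Each sequence holds the 250 bases before the start, written 5′ to 3′ on the gene's strand, with CG dinucleotides in capitals.
ZNF518B, chr4:10457427-10457676, minus strand: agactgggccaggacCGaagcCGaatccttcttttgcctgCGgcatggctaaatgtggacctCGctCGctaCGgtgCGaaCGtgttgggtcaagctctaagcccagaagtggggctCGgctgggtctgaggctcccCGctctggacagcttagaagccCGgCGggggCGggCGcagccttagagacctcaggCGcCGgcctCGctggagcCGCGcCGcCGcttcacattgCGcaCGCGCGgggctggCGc
PRTFDC1, chr10:24952607-24952856, minus strand: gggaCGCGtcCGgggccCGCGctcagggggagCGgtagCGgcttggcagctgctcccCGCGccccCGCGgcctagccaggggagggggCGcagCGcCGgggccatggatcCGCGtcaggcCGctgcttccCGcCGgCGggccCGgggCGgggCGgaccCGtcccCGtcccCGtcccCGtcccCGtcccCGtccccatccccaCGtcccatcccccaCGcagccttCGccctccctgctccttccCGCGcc
RTN1, middle start, chr14:59630624-59630873, minus strand: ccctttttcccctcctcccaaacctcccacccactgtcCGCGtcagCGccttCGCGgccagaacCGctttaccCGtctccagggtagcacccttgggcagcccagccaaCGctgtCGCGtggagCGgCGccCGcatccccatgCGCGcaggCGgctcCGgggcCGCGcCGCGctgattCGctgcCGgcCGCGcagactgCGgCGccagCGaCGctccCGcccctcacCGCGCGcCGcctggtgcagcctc
RTN1, innermost start, chr14:59610140-59610389, minus strand: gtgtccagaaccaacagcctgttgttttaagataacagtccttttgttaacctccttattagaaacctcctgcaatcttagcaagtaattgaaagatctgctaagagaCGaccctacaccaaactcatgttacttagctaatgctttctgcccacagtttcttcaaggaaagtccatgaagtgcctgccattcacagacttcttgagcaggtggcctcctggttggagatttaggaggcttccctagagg

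The 2 genes that were low in NS1 both had CG-rich promoters. ZNF518B had 26 CG dinucleotides, a number reached by 19.6% of the 35116 promoters of this length, whose median was 11. PRTFDC1 had 34, reached by 6.84% of promoters, and a GC content of 80.8%. RTN1 had 34 CG dinucleotides at the middle start, 19 at the outermost start (chr14:59870777-59871026, not printed), and 1 at the innermost start, where 14.7% of promoters have 1 or none. The GC box, GGGCGG or its complement CCGCCC, occurred 2 times before PRTFDC1, 1 time before ZNF518B and 1 time before the middle start of RTN1, against a share of 42.6% of all promoters with at least 1. The TATA box, TATAAA on either strand, occurred in none of the 4 printed sequences and in 10.7% of all promoters. A count per gene does not separate the 3 starts of RTN1.

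The libraries held 10593934 to 20266996 counts, and replicate 1 was the deepest in each group. Replicate 1 also stood apart from replicates 2 and 3 in every group, and the labels give no batch. Levels are given as CPM, the reads of a gene as a share of its library, on library totals scaled by TMM. HRAS, the RAS gene of this line's known driver mutation, was at 214 ± 51.7 CPM (SD, n = 3) in untreated WT cells and at 185 ± 8.25 (SD, n = 3) in untreated NS1 cells. With inducer these levels were 213 ± 16.6 and 156 ± 10.3 (SD, n = 3 each). Keratins 7, 8 and 18 were high in both lines, with group means from 869 CPM (KRT18) to 4700 CPM (KRT7). KRT5 and UPK3A had no count in any library, and CDH1 (E-cadherin) had none in untreated NS1 cells. Of 12 epithelial and urothelial markers, 6 or 7 reached a mean of 1 CPM in each group. The mesenchymal markers VIM, CDH2 and FN1 were present as well, with sums of 2166 to 9014 CPM in WT and 3700 to 7419 CPM in NS1 libraries.

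RTN1 (ENSG00000139970.17, chromosome 14, 59595976 to 59870966, minus strand) was present at an even level in NS1. In replicates 1, 2 and 3 it had 271, 291 and 198 counts in untreated NS1 cells and 343, 204 and 253 with inducer. The corresponding counts in WT cells were 5, 1 and 1 without and 3, 0 and 1 with inducer. All 6 NS1 libraries, at 16.7 to 21.1 CPM, lay above all 6 WT libraries, none of which exceeded 0.234 CPM. On the log2 scale the fitted difference between NS1 and WT was 6.87 (SE 0.31) without and 7.62 (SE 0.33) with inducer. Summed over libraries, RTN1 was 121-fold higher in NS1 without inducer (95% interval 58.5 to 302) and 214-fold higher with it (83.1 to 786). These intervals, like those below, are exact conditional binomial intervals that cover counting error only and leave out the spread between libraries. Reads without molecular identifiers are not independent molecules, so the intervals may be too narrow for counting error as well.

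SLAMF7 (ENSG00000026751.17, chromosome 1, 160739057 to 160754821, plus strand) was present in NS1 at a low and uneven level. It had 18, 28 and 23 counts in untreated NS1 replicates 1, 2 and 3, and 24, 104 and 79 counts with inducer. WT cells had 0, 2 and 1 counts without and 0, 1 and 0 with inducer. The lowest NS1 library, at 1.11 CPM, was above the highest WT library, at 0.150 CPM. The fitted log2 difference between the lines was 4.53 (SE 1.03) without inducer and 7.49 (SE 1.05) with it. Summed over the untreated libraries, SLAMF7 was 25.6-fold higher in NS1 (95% interval 8.42 to 127). With inducer the ratio was 221, with an interval of 39.2 to 8774, because it rests on 1 WT count.

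PRTFDC1 (ENSG00000099256.19, chromosome 10, 24848607 to 24952604, minus strand) showed the opposite pattern. WT cells had 82, 111 and 95 counts in untreated replicates 1, 2 and 3, and 94, 108 and 82 with inducer. NS1 cells had 0, 1 and 2 counts without and 1, 0 and 1 with inducer. In CPM, WT replicate 1 was the lowest with either treatment, at 3.84 and 4.46 against 7.38 to 9.17 in the other 4 WT libraries, yet far above the highest NS1 library, at 0.192. The fitted log2 difference between NS1 and WT was -6.39 (SE 0.62) without and -6.89 (SE 0.66) with inducer. Summed counts were 86.1-fold lower in NS1 without inducer (95% interval 29.2 to 420) and 133-fold lower with it (36.5 to 1103). An exon of the small RNA gene RN7SKP241 lies within a PRTFDC1 exon on the same strand and held at most 5 counts in any library.

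ZNF518B (ENSG00000178163.8, chromosome 4, 10439874 to 10457410, minus strand) had no count in any of the 6 NS1 libraries. WT cells had 128, 73 and 54 counts in untreated replicates 1, 2 and 3, and 128, 83 and 58 with inducer. In CPM the 6 WT libraries lay close together, at 5.21 to 6.15. Against 3 counts over the group, the level was at least 76.2-fold lower in NS1 without inducer and at least 84.0-fold lower with it. The counts of 0 allow a level of up to 0.0742 CPM over the untreated NS1 libraries and 0.0701 over the treated ones. A fitted fold change is not given for ZNF518B, since it would depend on the prior count.

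The 4 genes differed in how evenly they were expressed. Over the 6 libraries of the expressing line, the coefficient of variation was 7.64% for ZNF518B and 9.63% for RTN1, against 31.9% for PRTFDC1 and 89.3% for SLAMF7. Levels of different genes were compared as counts per exon length, scaled to the same total in each library. On that scale the means in the expressing line were 6.92 ± 0.572 for RTN1, 6.92 ± 2.07 for PRTFDC1, 1.71 ± 1.52 for SLAMF7 and 1.24 ± 0.138 for ZNF518B (SD, n = 6 each). SLAMF7 and ZNF518B did not differ beyond their spread. The order of RTN1 and PRTFDC1 depended on the length used: with the longest transcript in place of the union of exons they were at 10.2 ± 0.823 and 6.75 ± 2.03 (SD, n = 6 each). Over the 12 libraries, the log2 CPM of RTN1 had a Pearson correlation of -0.99 with that of ZNF518B and 0.91 with that of SLAMF7, a description that the choice of genes by line largely fixes.

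RTN1 and ZNF518B had similar levels with and without inducer. In NS1 cells, the ratio of the RTN1 level with inducer to that without was 1.07, 0.842 and 1.10 in replicates 1, 2 and 3, and the fitted log2 effect was -0.01 (SE 0.18). For ZNF518B in WT cells the ratios were 1.01, 1.12 and 1.00, with a fitted log2 effect of 0.06 (SE 0.18). The ratios for PRTFDC1 in WT cells were 1.16, 0.962 and 0.804, on both sides of 1, with a fitted log2 effect of -0.09 (SE 0.34). Every one of these 9 ratios had a 95% counting interval that included 1. Independence from the inducer was part of the choice of these genes, so the intervals are a description and not a test.

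SLAMF7 was higher with inducer in replicates 2 and 3. Its level in NS1 cells with inducer was 4.46 times that without in replicate 2 (95% counting interval 2.92 to 7.03) and 2.97 times in replicate 3 (1.84 to 4.95). In replicate 1 the ratio was 1.12, with an interval of 0.584 to 2.20. Each ratio sets libraries of the same number against each other, and pairing by number was not tested for replicates 2 and 3. The fitted log2 effect was 1.64 (SE 0.57). It was 1.88 without the replicate 1 libraries and 1.23 without those of replicate 2. No test is given, since a small inducer effect was part of the choice.

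The closest relatives of the 4 genes were examined next, to see whether the difference between the lines was shared within each family. These relatives were not part of the choice, so they were tested with edgeR's quasi-likelihood test and Benjamini-Hochberg adjustment over the 17775 genes tested. Of all genes tested, 12.5% were called between the lines without inducer (5.45% higher and 7.05% lower in NS1) and 28.2% with inducer (13.6% higher and 14.5% lower).

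Reticulons other than RTN1 were present in both lines. RTN3, a ubiquitous reticulon, fell from 331 ± 32.3 CPM in WT to 254 ± 10.4 in NS1 without inducer (SD, n = 3; log2 -0.38, SE 0.10, edgeR adjusted p = 0.0215). With inducer it was at 337 ± 18.3 in WT and 270 ± 5.95 in NS1 (SD, n = 3; log2 -0.32, SE 0.10, edgeR adjusted p = 0.0255). The first RTN3 call was lost without WT replicate 3 or any 1 of the untreated NS1 replicates (adjusted p up to 0.0897). The second was lost without WT replicate 2 or 3 or any 1 of the treated NS1 replicates (up to 0.0909), and neither held without the filter on low counts (0.0606 and 0.0995). RTN4, also known as Nogo, gave log2 differences of 0.15 (SE 0.16, adjusted p = 0.596) and 0.19 (SE 0.16, adjusted p = 0.427). RTN2 gave -0.11 (SE 0.15, adjusted p = 0.701) and 0.35 (SE 0.15, adjusted p = 0.0938).

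Per exon length, the RTN1 level in NS1 was the lowest of the 4 reticulons. Beside its 6.92 ± 0.572 (SD, n = 6), RTN2 was at 14.4 ± 3.00, RTN3 at 103 ± 2.71 and RTN4 at 204 ± 26.1 (SD, n = 6 each) in NS1 cells. RTN4 was thus 29.5 times and RTN3 14.9 times the RTN1 level, or 22.6 and 9.65 times when the longest transcript replaced the union of exons. RTN1 lay at the 40.7th percentile of the genes in the NS1 libraries, so that it was a moderate transcript of these cells.

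HPRT1, the relative of PRTFDC1, was lower in NS1 but not lost. Without inducer it was at 82.0, 73.1 and 90.2 CPM in WT replicates 1, 2 and 3 and at 58.5, 54.9 and 62.3 in those of NS1 (log2 -0.48, SE 0.12, edgeR adjusted p = 0.0219). With inducer WT libraries held 89.0, 80.8 and 68.4 CPM and NS1 libraries 45.8, 38.3 and 39.0 (log2 -0.95, SE 0.12, edgeR adjusted p = 0.000154). The groups did not overlap in either comparison. The call without inducer was lost without WT replicate 1 or 3 or NS1 replicate 1 or 2 (adjusted p up to 0.0932), whereas the call with inducer held in each of the 12 fits without 1 library. Per exon length, HPRT1 in WT cells was at 117 ± 11.8 (SD, n = 6), 16.9 times the PRTFDC1 level of 6.92 ± 2.07 (SD, n = 6).

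ZNF518A, the relative of ZNF518B, was the lower of the pair in WT cells, and its level was higher in NS1, the line without ZNF518B counts, than in WT. Per exon length it was at 0.786 ± 0.154 in WT, 0.636 times the 1.24 ± 0.138 of ZNF518B, and at 1.13 ± 0.149 in NS1 (SD, n = 6 each). In CPM it was at 3.39 ± 0.673 in untreated WT and 5.67 ± 0.371 in untreated NS1 cells (SD, n = 3; log2 0.73, SE 0.18, edgeR adjusted p = 0.0207). That call was lost without replicate 1 or 3 of either untreated group (adjusted p up to 0.0696). With inducer the log2 difference was 0.41 (SE 0.18) and did not pass, with an adjusted p of 0.112.

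The relatives of SLAMF7 were absent or close to it. SLAMF1, CD48, LY9 and SLAMF6, surface receptors of lymphocytes that lie beside SLAMF7 on chromosome 1, had no count in any of the 12 libraries. CD244 and CD84 had 1 count each, both in WT libraries. SLAMF8 had at most 3 counts in any library and SLAMF9 at most 7, with the higher values in WT cells. The signalling adaptor SH2D1A had no count, and SH2D1B, the adaptor through which SLAMF7 signals in natural killer cells, had at most 1 count in any library. FYN, a kinase that acts with these adaptors, was the single list member with enough counts for a test. It was not called in either comparison of the main fit, whereas edgeR with a replicate block called it without inducer (adjusted p = 0.0397).

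SLAMF7 and RTN1 are known from leukocytes and from neurons, so markers of both cell types were read in all libraries. Of 10 leukocyte markers, CD2, MS4A1, NKG7 and GNLY had no count in any library. Summed, the 10 markers reached 0.740 to 1.02 CPM in untreated NS1 and 1.19 to 2.09 in treated NS1 libraries, no higher than the 1.31 to 3.19 and 1.70 to 3.15 of the WT libraries. Outside this list, the T cell receptor constant gene TRBC2 was higher in NS1, at 3.3 ± 1.68 CPM (SD, n = 6). It was at 0.483 CPM or less in every WT library. Of 11 neuronal or neuroendocrine markers, STMN2, ELAVL4, NEFM and INSM1 had no count in any library, and only TUBB3 and ENO2 reached a mean of 1 CPM in any group. Their sum ranged from 236 to 389 CPM in untreated NS1 and from 286 to 327 in untreated WT libraries, and with inducer from 258 to 337 in NS1 and from 304 to 308 in WT. It was nearly all TUBB3 and ENO2. Of 3 neuronal markers tested, SNAP25 was called, lower in NS1 with inducer (log2 -1.53, SE 0.54, edgeR adjusted p = 0.0481), a call lost in 9 of the 12 fits without 1 library (up to 0.186). In bulk RNA, few cells with much RTN1 or SLAMF7 RNA and many cells with little cannot be told apart.

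Among epithelial and urothelial markers, 7 of 12 were tested, and their calls went both ways. Without inducer 1 was higher and 1 lower in NS1, and with inducer 3 were higher, with median log2 differences of -0.13 and 0.30. KRT19, a keratin of simple epithelia, rose by 0.78 (SE 0.21, edgeR adjusted p = 0.0312) on the log2 scale without inducer and by 1.31 (SE 0.22, adjusted p = 0.000752) with it. The first of these calls was lost without WT replicate 1 or 2 or NS1 replicate 2 or 3 (adjusted p up to 0.123). EPCAM, an epithelial adhesion protein, fell by 1.76 without inducer (SE 0.41, adjusted p = 0.0155) and gave -1.02 with it (SE 0.39, adjusted p = 0.0663). The EPCAM call was lost without untreated WT replicate 1 or untreated NS1 replicate 1 or 2 (up to 0.0679). KRT7 and GATA3 were the other calls with inducer, at 1.16 (adjusted p = 0.0243) and 1.38 (adjusted p = 0.00638). The KRT7 call was lost without replicate 2 or 3 of either treated group (up to 0.0901). The GATA3 call was lost without all libraries of replicate 2 (0.0630) or of replicate 3 (0.0890). Of the mesenchymal markers, vimentin (VIM) fell by 1.20 (SE 0.18, adjusted p = 0.00159) and by 1.30 (SE 0.19, adjusted p = 0.000268), and N-cadherin (CDH2) rose by 0.58 (SE 0.12, adjusted p = 0.00679) and by 0.98 (SE 0.12, adjusted p = 8.65e-05). Without inducer, the CDH2 call was lost without replicate 2 (0.0642) or 3 (0.152) and the VIM call without replicate 3 (0.0515). Their part in the levels of the 4 genes was not tested.

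Lists of genes that act with each of the 4 were then counted, again by edgeR's adjusted p over all genes tested. Over the 5 lists, 80 of 91 genes were tested. Without inducer 12 were called (15.0% of the tested, 4 higher and 8 lower in NS1), against 12.5% of all genes. With inducer 31 were called (38.8%, 7 higher and 24 lower), against 28.2% of all genes. Many calls were lost when replicate 2 or 3 was left out. Of 61 calls of named genes, 35 were lost without the 4 libraries of replicate 2 and 32 without those of replicate 3. These 61 cover the lists, families and neighbourhoods, and also the genes named below by their correlation with the 4. The correlated genes were picked from these data, and most of their calls held. Calls in the lists, families and neighbourhoods were thus lost more often than these numbers show.

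Among the 21 proteins that shape the ER, 1 was higher and 2 were lower in NS1 without inducer, and 2 were higher and 3 lower with it. Their median log2 difference was -0.06 and -0.01, against 0.00 for all genes in both comparisons. REEP1, which bends ER membranes and is mutated in hereditary spastic paraplegia, rose from 0.263 ± 0.291 CPM in WT to 2.80 ± 0.0672 in NS1 without inducer (SD, n = 3; log2 3.45, SE 0.46, edgeR adjusted p = 0.000632). With inducer it was at 0.341 ± 0.149 in WT and 2.13 ± 0.197 in NS1 (SD, n = 3; log2 2.52, SE 0.44, adjusted p = 0.00103). The REEP1 call without inducer was lost without the libraries of replicate 3 (edgeR adjusted p = 0.0541). RETREG3, a receptor for ER autophagy, fell by 0.44 (SE 0.12, adjusted p = 0.0363) and by 0.47 (SE 0.12, adjusted p = 0.0137) on the log2 scale. Both RETREG3 calls were lost in some fits without 1 library. Without inducer these were the 3 NS1 replicates, WT replicate 2, treated NS1 replicate 2 and treated WT replicate 3 (adjusted p up to 0.121). With inducer they were WT replicate 2 or 3 and NS1 replicate 3 (up to 0.0635).

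The list of H3K9 methylation and Polycomb genes, which holds the partners of ZNF518B, had 20 genes tested. Without inducer 1 was higher and 3 were lower in NS1, and with inducer 1 was higher and 8 were lower, with median log2 differences of 0.03 and -0.13. SUV39H2, an H3K9 methyltransferase, fell by 0.65 (SE 0.13, edgeR adjusted p = 0.00757) on the log2 scale without and by 1.01 (SE 0.13, adjusted p = 0.000171) with inducer, the first lost without replicate 2 (0.144) or 3 (0.0951). EED, a core subunit of Polycomb repressive complex 2, fell by 0.52 (SE 0.11, adjusted p = 0.00988, or 0.0529 without NS1 replicate 2) and by 0.93 (SE 0.11, adjusted p = 9.54e-05). CBX3, an HP1 protein that binds methylated H3K9, fell by 0.37 (SE 0.09, adjusted p = 0.0167) and by 0.69 (SE 0.09, adjusted p = 0.000137). The first CBX3 call was lost without WT replicate 1 or NS1 replicate 2 or 3 (up to 0.0825). EHMT2, the direct partner of ZNF518B, was at 69.1 ± 10.7 CPM in untreated WT and 70.2 ± 0.683 in untreated NS1 cells (SD, n = 3 each) and was not called in either comparison.

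The 16 genes of DNA methylation and its removal held 2 that were called without inducer, both higher in NS1, and 6 with it, of which 3 were higher and 3 lower. TET3, which oxidises methylated cytosine, rose from 10.6 ± 5.04 CPM in WT to 22.7 ± 2.97 in NS1 without inducer (SD, n = 3; log2 1.08, SE 0.30, edgeR adjusted p = 0.0349). That call was lost without WT replicate 2 or 3 or any 1 of the NS1 replicates (adjusted p up to 0.0934). With inducer the log2 difference was 1.30 (SE 0.31, adjusted p = 0.00695). MBD1, which binds methylated CG, rose by 0.67 (SE 0.09, adjusted p = 0.000663) and by 0.43 (SE 0.09, adjusted p = 0.00324). Its first call was lost without replicate 2 (0.0641) or 3 (0.0515), and its second without replicate 2 (0.0951).

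Of the purine salvage and synthesis genes, which include HPRT1, 22 of 23 were tested. Without inducer 3 were called, all lower in NS1, and with inducer 1 was higher and 10 were lower, with median log2 differences of -0.02 and -0.29. IMPDH1, which makes the precursor of guanine nucleotides, fell by 0.47 (SE 0.12, edgeR adjusted p = 0.0203) on the log2 scale without and by 0.65 (SE 0.12, adjusted p = 0.00124) with inducer. The first IMPDH1 call was lost without WT replicate 3 or NS1 replicate 2 or 3 (adjusted p up to 0.0917). ADA, adenosine deaminase, fell by 0.68 (SE 0.18, adjusted p = 0.0266) and by 0.54 (SE 0.18, adjusted p = 0.0362). The ADA call without inducer was lost without WT replicate 1 or NS1 replicate 2 or 3, and the one with inducer without replicate 2 or 3 of either line (up to 0.123).

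The genes around each of the 4 were examined for a difference that reached beyond a single gene. Within 500 kb of the 4 starts, 36 genes were tested. Without inducer 1 was called (2.78%, against 12.5% of all genes), and with inducer 11 were called (30.6%, 9 higher and 2 lower, against 28.2%).

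None of the 8 tested neighbours of RTN1 was called without inducer, although 3 had an unadjusted p under 0.05 and DESeq2 called 0 of them. Without untreated WT replicate 2, PCNX4 was called (adjusted p = 0.0286). CCDC175, the nearest tested gene on one side at 294 kb, gave log2 differences of 0.24 (SE 0.26) and 0.06 (SE 0.26). Distances run from the outermost RTN1 start, and RTN1 extends toward CCDC175 as far as 59595976. The CCDC175 start, at 59576831, is thus much closer to the end of RTN1 and to its innermost start. PCNX4, the nearest on the other side at 221 kb, gave 0.39 (SE 0.13, adjusted p = 0.0770) without and 0.41 (SE 0.13, adjusted p = 0.0384) with inducer. Also called with inducer were PPM1A at 0.39 (SE 0.12, adjusted p = 0.0254) and L3HYPDH at 0.73 (SE 0.26, adjusted p = 0.0486). L3HYPDH shares exons with GPR135 and AL121694.1, and PCNX4 with DHRS7, so the counts of L3HYPDH and PCNX4 are uncertain. All 3 calls were higher in NS1, and each was lost with library totals as the scaling (adjusted p of 0.107, 0.0820 and 0.0839). Leaving out 1 library also ended each of them. PPM1A was lost without replicate 1 or 3 of either treated group (adjusted p up to 0.0925). PCNX4 was lost without replicate 1 or 2 of either treated group, treated WT replicate 3 or untreated NS1 replicate 3 (up to 0.126). L3HYPDH was lost without replicate 2 or 3 of either treated group, untreated WT replicate 1 or 3, or untreated NS1 replicate 2 or 3 (up to 0.175). Beside the log2 difference of 6.87 for RTN1, the largest value among its neighbours was 1.43, for ENSG00000258782 without inducer, which was not called and was named after its value was seen.

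Around SLAMF7, 25 genes were tested. Without inducer only RPSAP18, a copy of a ribosomal protein gene whose reads may belong to other copies, was called higher in NS1 (log2 0.66, SE 0.15, edgeR adjusted p = 0.0117). With inducer 6 genes were called, all higher in NS1, with log2 differences from 0.33 to 0.77. They were DCAF8 at 0.47 (adjusted p = 0.00194), NCSTN at 0.52 (0.0130), TSTD1 at 0.77 (0.0271), PEX19 at 0.33 (0.0306), ENSG00000258465 at 0.46 (0.00179) and ENSG00000224985 at 0.40 (0.0258). The locus ENSG00000258465 shares exons with DCAF8 and PEX19, and ENSG00000224985 shares exons with UFC1, so their counts are uncertain. The same holds for NCSTN, which shares exons with COPA, and for TSTD1, which shares exons with AL591806.3. The DCAF8 and ENSG00000258465 calls held in each of the 12 fits without 1 library, whereas the other 4 did not. NCSTN was lost without NS1 replicate 2 (adjusted p of 0.0517), TSTD1 without any 1 of the WT replicates or NS1 replicate 2 or 3 (up to 0.106), PEX19 without replicate 1 of either line or WT replicate 2 or 3 (up to 0.131), and ENSG00000224985 without NS1 replicate 1 or WT replicate 2 or 3 (up to 0.0985). PEX19 and ENSG00000224985 were also lost with library totals (0.127 and 0.0805), without the filter on low counts (0.115 and 0.152) and with only the groups compared in the fit (0.0554 and 0.0521). Without the 4 libraries of replicate 2, DCAF8 (0.0802) and ENSG00000258465 (0.0523) were lost as well. The nearest tested genes, ENSG00000213080 at 156 kb and COPA at 396 kb, were not called in either comparison.

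PRTFDC1 had 2 tested neighbours, both lower in NS1 by their fitted values. THNSL1, at 64.1 kb, was at 4.25 ± 1.13 CPM in WT and 2.40 ± 0.383 in NS1 without inducer (SD, n = 3; log2 -0.84, SE 0.39, edgeR adjusted p = 0.175). With inducer it fell by 1.28 on the log2 scale (SE 0.41, adjusted p = 0.0309). THNSL1 shares exons with AL512598.2, so its counts are uncertain. ARHGAP21, at 229 kb on the other side, gave -0.47 (SE 0.18, adjusted p = 0.105) without and -0.63 (SE 0.18, adjusted p = 0.0188) with inducer. Without inducer both had an unadjusted p under 0.05, DESeq2 called 0 of them, and without the filter on low counts both were called (adjusted p of 0.0235 for THNSL1 and 0.0140 for ARHGAP21). Of the calls with inducer, that of THNSL1 was lost without WT replicate 1 or NS1 replicate 2 or 3 (adjusted p up to 0.170) and that of ARHGAP21 without WT replicate 2 or 3 or NS1 replicate 3 (up to 0.0851).

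ZNF518B had 21 annotated genes within 500 kb, of which 1 was tested. This was WDR1, a regulator of actin filaments, at 340 kb, with log2 differences of 0.28 (SE 0.16, edgeR adjusted p = 0.275) and 0.32 (SE 0.16, adjusted p = 0.149). Neither was under 0.05 unadjusted or called by DESeq2, but edgeR with a replicate block called both (adjusted p of 0.0288 and 0.00896). The other 20 genes near ZNF518B had too few counts for a test in these cells.

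To place the 4 genes among all others, a numeric form of their pattern was counted. Genes had to be under 0.5 CPM in all 6 libraries of one line and at 1 CPM or more in all 6 of the other. Outside imprinted genes, 17 met it: 12 present in NS1 and 5 present in WT, of which 11 and 3 are annotated as protein-coding. All 4 genes described here were among the 17. In CPM, not scaled by length, RTN1 was the highest of the 12 and SLAMF7 the 8th, while PRTFDC1 and ZNF518B were the 2 highest of the 5. The imprinted genes SGCE and PEG10, neighbours on chromosome 7, also met the numbers and were set aside.

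Beside RTN1, the 4 highest of the genes present in NS1 were C4orf19 at 12.3 ± 6.68 CPM, KCTD16 at 8.76 ± 4.14, PPP2R2B at 8.67 ± 4.61 and RNF150 at 6.82 ± 5.41 (SD, n = 6 each). KCTD16 is a subunit of GABA-B receptor complexes, PPP2R2B a regulatory subunit of protein phosphatase 2A, and RNF150 a RING finger protein. Each of these had a larger SD than RTN1 over the same libraries, at a lower mean. Present in WT beside PRTFDC1 and ZNF518B were MAGI2-AS3 at 3.25 ± 0.588 CPM, the pseudogene DPY19L2P1 at 2.18 ± 0.633 and ZNF853 at 1.88 ± 0.561 (SD, n = 6 each), all 3 on chromosome 7.

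The 4 genes lie on 4 chromosomes. The nearest other gene of the 17 to ZNF518B was C4orf19, 27.0 Mb away, and RTN1, SLAMF7 and PRTFDC1 had none on their chromosome. The limits used matter for the count. At the low limit, TRBC2 was just inside with a highest WT value of 0.483 CPM, and ZNF704 just outside with 0.522. On the other side, the lowest NS1 value was 1.05 for CD24, just inside, and 0.995 for ATRNL1, just outside. For genes present in WT, DPY19L2P1 (0.435) and FAM133A (0.523) flanked the low limit, and ZNF853 (1.04) and RGCC (0.983) the high one.

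The genes whose log2 CPM most resembled each of the 4 over the 12 libraries were named by Pearson correlation among genes with a mean of at least 1 CPM. For RTN1 they were ERCC2 (0.992), PLS3 (0.990) and SLC9A2 (0.987), and for SLAMF7 they were PXDC1 (0.988), EIF4A2 (0.988) and FHL2 (0.985). For PRTFDC1 they were GSDME (0.988), SV2A (0.986) and SGCE (0.985), and for ZNF518B they were SGCE (0.999), PEG10 (0.998) and SV2A (0.991). With 2 lines in the data, such values mostly restate that a gene differs between the lines, and no p is given. A close match did not mean a similar size of difference. ERCC2 was at 66.4 ± 3.03 CPM in untreated WT and at 125 ± 5.59 in untreated NS1 cells (SD, n = 3 each), whereas SGCE had 0 counts in all NS1 libraries and 18.5 ± 1.83 CPM in untreated WT cells (SD, n = 3). The 3 genes nearest to SLAMF7 had a higher mean in treated than in untreated NS1 cells, as SLAMF7 did. They were picked by correlation over these same libraries, so this shared rise is partly fixed by their choice. PXDC1 was at 42.3 ± 3.43 CPM without and 52.7 ± 12.4 with inducer (SD, n = 3 each).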

How the data were processed

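The deposited file is 1 table of read counts for 12 libraries, raw and whole-numbered as the authors made it, with 60603 versioned Ensembl identifiers. Per the submitters' processing notes, the tools were STAR 2.7.3a and featureCounts 1.6.4 and the build hg38; annotation and use of strand are not given in the sources used here, so reads of overlapping or antisense genes cannot be told apart. All 12 columns carried names that match 1 library title each. Symbols came from a name table (60306 identifiers) and positions from GENCODE release 29 on GRCh38 (58528 identifiers without version); the versions of the 4 genes differ from those in the table.

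The genes and gene lists were chosen with earlier results of these data known. Counts were analysed in R 4.3.3 with edgeR 4.0.16: filterByExpr over 4 groups (17775 genes), TMM, estimateDisp, glmQLFit and glmQLFTest on all 12 libraries with a mean per group, two-sided, with Benjamini-Hochberg adjusted p under 0.05 as a call. A standard error is the log2 fold change divided by the square root of F. Alternatives were DESeq2 1.42.0, other scalings, filters, sample sets and blocks, and leaving out libraries. The model was tested on simulated data. A group at 0 was set against a floor of 3 counts over its libraries. No replicate pair of a group looked like 1 library deposited more than once (lowest chi-square per degree of freedom 3.03).

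Named by rule were the 4 genes, their relatives, up to 4 genes per list called in both line comparisons, the nearest and the called neighbours, the 3 genes most like each, and the 5 highest of the same pattern in each direction. EHMT2, EPCAM, KRT7, GATA3, SNAP25, the marker genes at 0 and the genes at the limits of the pattern were named after their values were seen. Same-numbered libraries deviated together within a line (r = 0.752, 0.385 and 0.256 in WT, 0.713, 0.386 and 0.384 in NS1), so the numbers pair the inducer comparisons. One leukocyte marker fixed in the list is not reported here and was left out of its sums.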

Additional observations from a re-analysis of the deposited data

How the results depend on the processing

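No call of a named gene reversed its direction under the alternatives run. Effects near 0 did change sign, such as the log2 inducer effects on RTN1 in NS1 (-0.09 to 0.12) and on PRTFDC1 in WT (-0.42 to 0.14). The direction of the 4 genes was fixed by how they were chosen. Without replicate 1, the ratio of summed counts was 240 and 478 for RTN1 and 16.7 and 191 for SLAMF7 in NS1 over WT, without and with inducer, and 70.1 and 182 for PRTFDC1 in WT over NS1. The bound for ZNF518B was then 43.2 and 44.9, from fewer counts.

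Between the lines, same-numbered libraries had correlations of deviations from 0.00601 to 0.190, all positive and all lower than those within a line. Whether the numbers pair libraries between the lines was not tested. With a replicate block, calls between the lines rose from 2222 to 3908 without inducer and from 5007 to 6670 with it, and calls in the lists without inducer from 12 to 22. The block also called WDR1 in both comparisons (adjusted p of 0.0288 and 0.00896) and, without inducer, FYN (0.0397), THNSL1 (0.0472) and PCNX4 (0.0460). In the inducer comparison, the block gave SLAMF7 a log2 effect of 1.44, or 1.53 with a block within each line.

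Calls in the lists without inducer numbered 6 with only the groups compared in the fit. Calls in the neighbourhoods without inducer, 1 in the main analysis, numbered 2 with library totals, 3 without the low-count filter, 2 with DESeq2, 7 with the replicate block and 0 within 250 kb. With inducer, 11 became 7 with only the groups compared and 3 within 250 kb. The cause was not tested, except that the smaller window holds fewer genes. The 17 genes of the same pattern became 4 under 0.2 CPM (without RTN1), 4 at no more than 3 counts per library (without RTN1) and 2 at 5 CPM or more (RTN1 and ZNF518B).

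Leaving out 1 replicate number or library, calls ranged from 182 to 3466 over all genes without inducer and from 1632 to 6007 with it, from 0 to 19 and from 14 to 36 in the lists, and from 0 to 3 and from 0 to 12 in the neighbourhoods. The lowest counts of calls came without replicate 2 or 3. Leaving out 1 replicate number left 28 to 52 genes with the pattern, a setting chosen after seeing the data that can only add genes. Of 61 calls of named genes, 22 were lost in some fit without 1 library, 35 without replicate 2, 32 without replicate 3 and 5 without replicate 1, and 15 were lost in another alternative. The low line held at most 7 counts of any of the 4 genes per comparison, so depth limits each ratio.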
